A study of Mus musculus with 96 samples.

Results

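The libraries described here are the 12 liver macrophage (LM) libraries from RevDKO mice, out of 96 samples in the series, taken at ZT4, ZT10, ZT16 and ZT22 with 3 libraries at each time. ZT is zeitgeber time, the number of hours since lights on, and lights went off at ZT12. The libraries were chosen by the genotype, cell type and time in the sample labels, and not by any measured value. RevDKO (genotype "ReverbhDKO" in the labels) denotes male C57BL/6J mice whose floxed Nr1d1 and Nr1d2, the genes for REV-ERBα and REV-ERBβ, were deleted in adult liver by an adeno-associated virus carrying CRE under the TBG promoter, which is active in hepatocytes. The macrophages themselves were therefore not the target of the deletion. Control mice received the same vector with GFP in place of CRE. Both groups ate a high fat and sucrose diet (D12492i) for 4 weeks. Each library was made from isolated cells, and the 3 libraries of a time were biological replicates by the study's methods. The question was which macrophage transcripts differed with time of day when the hepatocytes around the cells lacked REV-ERBs.

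Circadian time is kept in each cell by a transcriptional loop. The activators BMAL1 (Arntl) and CLOCK or NPAS2 bind E-boxes and switch on Per, Cry and Nr1d genes, whose products then repress, and REV-ERBs repress Arntl, Npas2 and many lipid genes through RORE sites. PAR bZIP factors such as DBP carry the timing to output genes through D-boxes. Kupffer cells, the resident macrophages of liver sinusoids, clear particles, iron and dying cells, and lie against hepatocytes and sinusoidal endothelium.

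Values are RPKTM, reads per kilobase of transcript scaled to a fixed library total, quantile normalized by the authors, so that all 36 macrophage libraries of the table share one set of values and sequencing depth is not known. These 36 are 12 RevDKO, 12 Control and 12 RevScapTKO libraries, the last from mice that also lacked Scap in hepatocytes, on the same diet for 4 weeks. The RevScapTKO libraries entered only the fits over all 36 libraries. Differences are between means of log2(RPKTM + 1), which understates changes of low genes, and are given with the standard error of the fit. Genes were tested with the moderated F test over the 4 times and with limma's moderated test for each pair of times, and "rose" or "fell" denotes a Benjamini-Hochberg adjusted p under 0.05 over all 12924 genes tested.

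The labelled cell type was checked first. All 11 macrophage markers and all 14 Kupffer cell identity genes were above 0 in every RevDKO library. The summed level of the macrophage markers was 9260 to 22400 RPKTM at ZT4, 5680 to 14700 at ZT10, 3040 to 8570 at ZT16 and 3270 to 5510 at ZT22. The 16 hepatocyte markers were also above 0 in every library, and their sum was larger than the macrophage sum: 73300 to 127000 at ZT4, 78700 to 133000 at ZT10, 104000 to 148000 at ZT16 and 161000 to 173000 at ZT22. Hepatocyte transcripts were thus a large part of these libraries, and their level was highest at ZT22, where it did not overlap with any other time, while macrophage markers were lowest at ZT16 and ZT22. In such bulk samples, fewer macrophages and less macrophage RNA per cell cannot be told apart. Sums of endothelial markers (10 genes, none at 0) ran from 1730 to 4270 RPKTM, and those of stellate and fibroblast markers (10 genes, at most 1 at 0) from 925 to 1080 at ZT4, 1120 to 1180 at ZT10, 1600 to 2300 at ZT16 and 1060 to 1920 at ZT22, with ZT16 above ZT4 and ZT10. Red cell markers summed to 249 to 655 RPKTM at ZT4, 159 to 624 at ZT10, 470 to 3030 at ZT16 and 292 to 2390 at ZT22. The part of these cells in the differences between times was not tested. Dendritic cell markers summed to 36.6 to 83.0, neutrophil markers to 24.4 to 81.8, cholangiocyte markers to 17.9 to 78.7, B cell markers to 11 to 78.5 and T and NK cell markers to 4.94 to 47.8, with up to 6 of 8 T and NK genes listed at 0. A set of 4 libraries, replicate 2 of ZT10, replicates 1 and 2 of ZT16 and replicate 2 of ZT22, had a median correlation with the other 11 under 0.9, between 0.86 and 0.894. A fit without these 4 leaves ZT16 with a single library, replicate 3, which is then assumed to vary like the other groups.

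**Figure D1:**
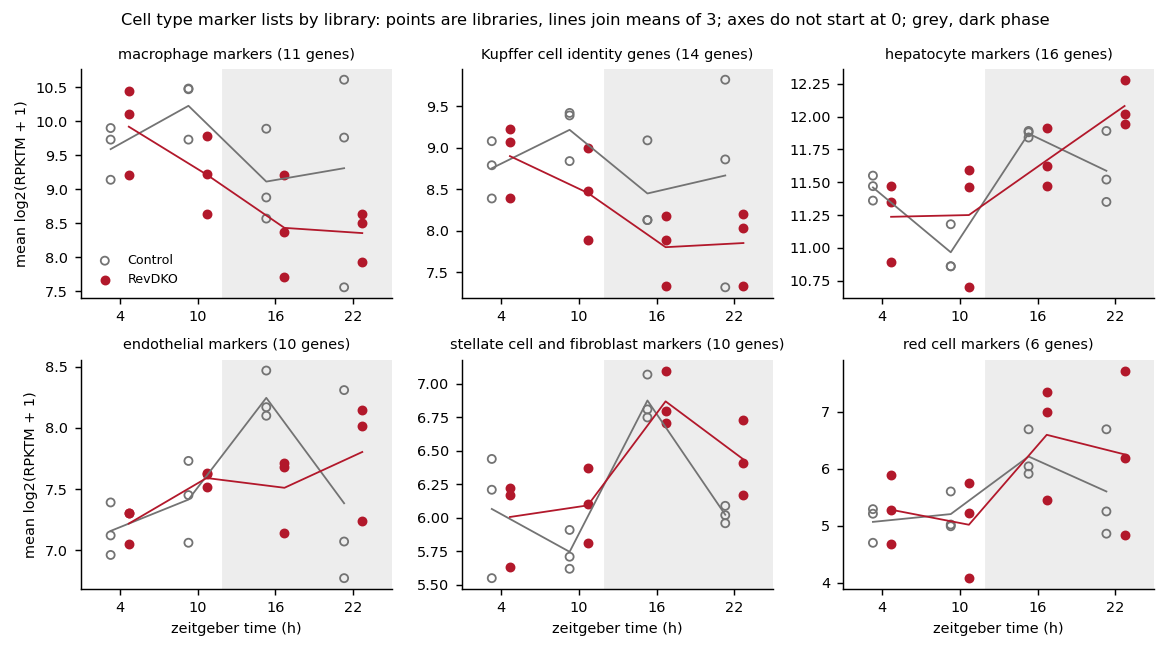
Mean log2(RPKTM + 1) of 6 cell type marker lists (y axis, not starting at 0) against zeitgeber time in hours (x axis) in the 12 RevDKO (filled) and 12 Control (open) macrophage libraries, with lines joining the means of 3. In RevDKO libraries the hepatocyte score ran from 10.89 to 11.47 at ZT4 and from 11.94 to 12.28 at ZT22, and the macrophage score from 9.21 to 10.44 at ZT4 and from 7.93 to 8.63 at ZT22.

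Nr1d1 and Nr1d2 remained present in the RevDKO macrophage libraries. Nr1d1 (mm9, chr11:98629246-98636691, minus strand) stood at 31.1, 42.9 and 135 RPKTM at ZT4, at 92.9, 80.4 and 58.8 at ZT10, at 24.7, 28.3 and 28.3 at ZT16 and at 6.9, 12.2 and 8.05 at ZT22. Every ZT22 library was below every library of the other times, and ZT4 and ZT10 overlapped. Nr1d2 stood at 43.4, 25.2 and 52.6 RPKTM at ZT4, at 57.1, 76.7 and 106 at ZT10, at 36.9, 94.2 and 46.1 at ZT16 and at 28.4, 45.1 and 27.5 at ZT22, and did not pass the F test (adjusted p = 0.41). Control macrophages had means of 89.6, 32.4, 11.5 and 8.03 RPKTM for Nr1d1 from ZT4 to ZT22. These values are for whole transcripts, so they do not check the deletion of part of a gene, and the deletion was directed at hepatocytes. In the separately normalized hepatocyte table, Nr1d1 means in RevDKO were 244, 188, 66.1 and 53.2 RPKTM from ZT4 to ZT22. Control hepatocyte means were 257, 86.2, 11.4 and 8.28, so whole-transcript Nr1d1 was lower in RevDKO only at ZT4, given without a test. Scap, which was not deleted in these mice, did not pass the test (range 0.60, adjusted p = 0.787). Nr1d1 overlaps Thra on the opposite strand by 1075 bases, and the use of strand in counting was not stated.

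Across the 4 times, 215 of 12924 genes differed (1.66% of genes tested, limma moderated F test, Benjamini-Hochberg adjusted p under 0.05). By the time of the highest mean, 163 were highest at ZT22, 29 at ZT4, 12 at ZT10 and 11 at ZT16. Of those highest at ZT22, 153 were lowest at ZT4 and 10 at ZT10, and 147 of the 215 went up at every step from ZT4 to ZT22 while 21 went down at every step. The contrast between the end of the dark phase and the early light phase therefore held most of the calls. Of the 163 genes highest at ZT22, 158 (96.9%) had a higher mean in the RevDKO hepatocyte table than in the macrophage table, against 75.5% of all genes tested. For the 29 genes highest at ZT4 the number was 21 (72.4%), near the share of all genes tested. With the mean of the 16 hepatocyte markers as a covariate no gene passed the F test (1125 at an unadjusted p under 0.05). That mean was higher in every ZT22 library (11.94 to 12.28) than in any library of the other times, so a fit with it cannot separate it from time. The part of hepatocyte RNA in the time differences was not tested. Without the mean-variance trend in limma none passed either (1400 unadjusted). With that covariate and weights for library quality together 64 passed. Leaving out 1 library gave 66 (without ZT22 replicate 1) to 293 (without ZT16 replicate 3), and 58 of the 215 were called in every such fit, 50 of them highest at ZT22.

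**Figure D2:**
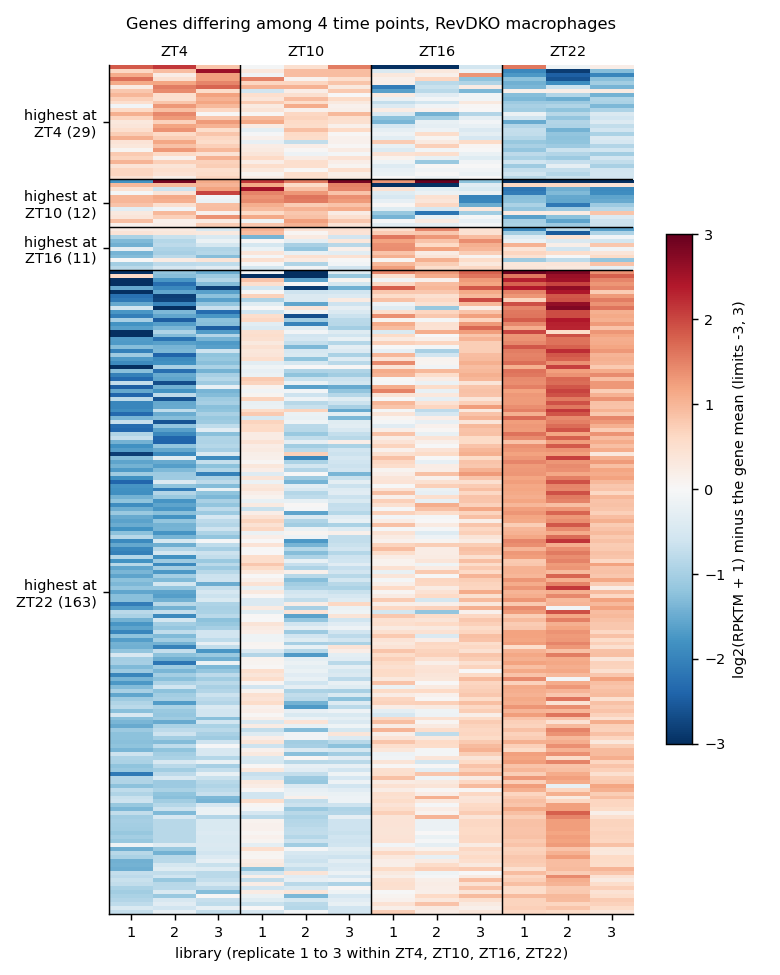
Each row is 1 of the 215 genes that differed among times and each column 1 of the 12 RevDKO libraries, grouped by time (x axis), with rows grouped by the time of the highest mean (y axis) and color giving log2(RPKTM + 1) minus the gene's mean. The block of 163 genes highest at ZT22 is low in the ZT4 libraries and rises through ZT16. Of the 29 genes highest at ZT4, 25 have their lowest mean at ZT22 and 4 at ZT16.

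Between pairs of times, ZT22 minus ZT4 gave 407 calls (3.15%), 303 genes that rose (2.34%) and 104 that fell (0.805%). With the hepatocyte covariate none passed (1175 unadjusted), and with the covariate and library weights the split turned to 70 that rose and 139 that fell. ZT16 minus ZT4 gave 75 calls (0.58%), 66 genes that rose (0.511%) and 9 that fell (0.0696%). This split turned to 44 that rose and 81 that fell without ZT16 replicate 3, and was 67 and 54 in a fit over all 36 libraries. ZT22 minus ZT10 gave 50 calls (0.387%), 32 genes that rose (0.248%) and 18 that fell (0.139%), and without ZT22 replicate 1 or without ZT22 replicate 2 none was left. A single gene, Neat1, fell between ZT16 and ZT22 (0.00774%). ZT10 minus ZT4 gave 0 calls by limma (555 genes at an unadjusted p under 0.05), and the smallest p was that of Mup3, a major urinary protein gene, which did not pass (difference 1.70 ± 0.32 SE, limma adjusted p = 0.358). ZT16 minus ZT10 also gave 0 calls (1189 unadjusted), and its smallest p was that of Elovl6 (3.19 ± 0.54 SE, limma adjusted p = 0.249). No other tool was run on these pairs, and alternative settings of limma gave up to 25 calls for ZT16 minus ZT10, or 47 without ZT16 replicate 3. Libraries that did not overlap between a pair of times, as described for single genes in what follows, were common. All 3 libraries of ZT22 were above those of ZT4 in 12.8% of genes tested and below them in 11.5%, and the shares were 8.69% and 6.91% for ZT16 against ZT4 and 5.62% and 3.95% for ZT10 against ZT4. They were 6.55% and 5.95% for ZT16 against ZT10, 10.1% and 9.65% for ZT22 against ZT10, and 8.29% and 7.7% for ZT22 against ZT16.

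Among the clock genes, the repressors Nr1d1, Per3 and Per2 and the output factor Dbp differed with time, 4 of 21 clock genes tested, whereas none of the 5 activators tested passed. Over all genes tested 1.66% differed with time. This share applies to the F test counts of every list below, and 2.34% risen and 0.805% fallen to those for ZT22 minus ZT4. Dbp (chr7:52960617-52965573), a PAR bZIP activator, stood at 47.2, 21.7 and 80.2 RPKTM at ZT4, at 197, 63.5 and 96.5 at ZT10, at 47.5, 27.4 and 24.6 at ZT16 and at 6.84, 11.8 and 8.45 at ZT22. All ZT22 libraries were below all others, and the highest library was at ZT10. The fall from ZT10 to ZT22 was 3.45 ± 0.53 SE on the log2 scale (limma adjusted p = 0.0158), and the F test gave an adjusted p of 0.0143. Nr1d1 fell by 2.97 ± 0.50 SE over the same interval (limma adjusted p = 0.02).

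Per3 (chr4:150377764-150418774), a period gene, stood at 85.5, 87 and 52 RPKTM at ZT4, at 148, 96.9 and 98.3 at ZT10, at 102, 198 and 98 at ZT16 and at 17.9, 40 and 22.4 at ZT22. Its low time was also ZT22, with no overlap, and it fell by 2.11 ± 0.40 SE from ZT10 to ZT22 (limma adjusted p = 0.0358). Per2 (chr1:93312559-93355905), which feeds back on BMAL1, was placed differently: 36.8, 51.5 and 81.1 RPKTM at ZT4, 95.9, 75.4 and 118 at ZT10, 216, 169 and 247 at ZT16, and 82.3, 69.1 and 63.2 at ZT22. All 3 ZT16 libraries were above the other 9, and Per2 rose by 1.94 ± 0.34 SE from ZT4 to ZT16 (limma adjusted p = 0.0145). The order of the highest means was ZT10 for Nr1d1, Nr1d2, Dbp, Tef and Cry1, and ZT16 for Per1, Per2 and Per3, although the Per3 means at ZT10 and ZT16 differed by only 0.16 ± 0.40 SE. Without the 4 libraries of low correlation, which leaves 1 library at ZT16, Dbp and Per3 passed the F test (limma adjusted p = 0.0205 and 0.0283), and Nr1d1 and Per2 did not (0.0565 and 0.128). Leaving out ZT22 replicate 1 or ZT22 replicate 3 ended the call of each of these 4 genes, and that of Per2 was also lost without replicate 1 or 2 of ZT4, 1 or 3 of ZT16, or 2 of ZT22.

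Arntl, which encodes BMAL1 and is a target of REV-ERB repression, stood at 13.2, 41.5 and 41.5 RPKTM at ZT4, at 32.6, 37.1 and 24.5 at ZT10, at 38, 11.1 and 42.7 at ZT16 and at 37.6, 21 and 39.2 at ZT22. Its range over the day was 0.24 on the log2 scale, the times overlapped, and its adjusted p was 0.986 (limma F test). Control means ran through 18.3, 7.83, 17.3 and 38.1 RPKTM, and no difference in time course between genotypes passed for Arntl (limma adjusted p = 0.912). Npas2, its alternative partner gene, stood at 27.3, 21.9 and 40.3 RPKTM at ZT4, at 21, 29.9 and 15.4 at ZT10, at 24.9, 23 and 33.4 at ZT16 and at 14.3, 0 and 14.5 at ZT22. Control means of Npas2 were 0.504, 0.461, 3.26 and 1.5 RPKTM, so 11 of 12 RevDKO libraries lay above all Control libraries, given here as values with no test of level. In the hepatocyte table, RevDKO libraries ran from 53.6 to 138 RPKTM for Npas2 and Control libraries from 0 to 58.5, and the part of hepatocyte RNA in the macrophage values was not tested.

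The other clock genes did not pass. Bhlhe41 had a range of 2.56 (limma adjusted p = 0.33), Nr1d2 of 1.22, Per1 of 1.19, Cry1 of 1.07, Cry2 of 1.07, Ciart of 1.74 and Bhlhe40 of 0.51. Among outputs, Wee1, a cell cycle kinase, had a range of 2.41 with all 12 libraries at or under 16.2 RPKTM, Tef of 0.90, Usp2 of 1.0, Hlf of 1.10 and Nfil3 of 0.45. Of the activators, Rora had a range of 0.77 and Clock of 1.21, the latter with ZT22 replicate 2, a library of low correlation, at 9.16 RPKTM against 81.2 to 133 in the other 11. The median ZT22 minus ZT4 difference was -0.62 for the 10 repressors, 0.14 for the activators and -0.39 for the 6 PAR bZIP and output genes, beside -0.01 for all genes tested.

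**Figure D3:**
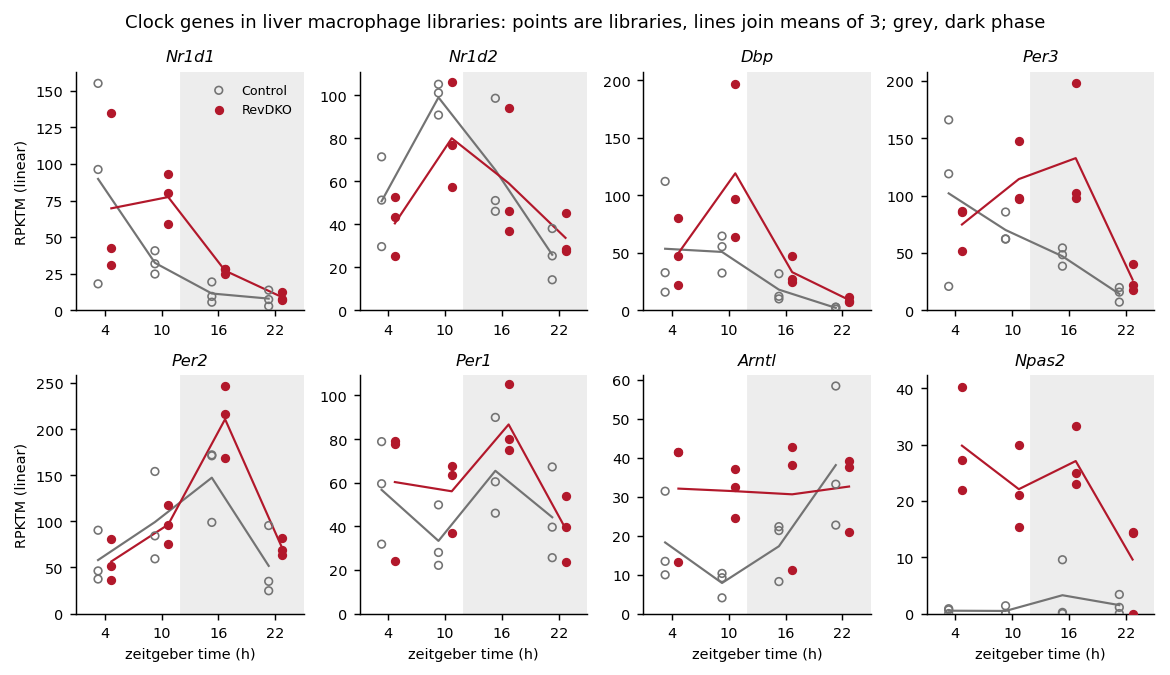
RPKTM on a linear scale (y axis) of 8 clock genes against zeitgeber time in hours (x axis) in RevDKO (filled) and Control (open) macrophage libraries, with lines joining means of 3 and the dark phase in grey. In RevDKO libraries Nr1d1, Dbp and Per3 are lowest in all 3 ZT22 libraries, Per2 is highest in all 3 ZT16 libraries, and Arntl has a range of 0.24 on the log2 scale.

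Promoter sequence is shown for Nr1d1 and Per3, the called clock repressors with their lowest mean at ZT22, for Fkbp5, which was highest at ZT16, and for Elovl6, the fatty acid synthesis gene with the largest range. Each is the stretch of 250 bases before the RefSeq start (GRCm38.p6, a later build than the mm9 coordinates of the expression table), 5′ to 3′ on the gene's strand. Both strands were searched for the E-box CACGTG, the D-box TTATGNAA, the REV-ERB and ROR core element AGGTCA and the sterol regulatory element TCACNCCAC, and matches are in capitals. These motifs do not overlap in the stretches shown.
Nr1d1, chr11:98775378-98775627, minus strand: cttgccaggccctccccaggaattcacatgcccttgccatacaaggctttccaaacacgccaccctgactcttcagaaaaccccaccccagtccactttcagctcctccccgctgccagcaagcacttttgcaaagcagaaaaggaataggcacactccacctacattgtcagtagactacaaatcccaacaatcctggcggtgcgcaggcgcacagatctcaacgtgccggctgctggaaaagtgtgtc
Per3, chr4:151044666-151044915, minus strand: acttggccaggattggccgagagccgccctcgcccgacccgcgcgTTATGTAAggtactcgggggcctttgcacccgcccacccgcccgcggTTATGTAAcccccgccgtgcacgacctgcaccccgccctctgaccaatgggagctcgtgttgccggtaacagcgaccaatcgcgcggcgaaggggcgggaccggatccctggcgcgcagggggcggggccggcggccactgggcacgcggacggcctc
Fkbp5, chr17:28486150-28486399, minus strand: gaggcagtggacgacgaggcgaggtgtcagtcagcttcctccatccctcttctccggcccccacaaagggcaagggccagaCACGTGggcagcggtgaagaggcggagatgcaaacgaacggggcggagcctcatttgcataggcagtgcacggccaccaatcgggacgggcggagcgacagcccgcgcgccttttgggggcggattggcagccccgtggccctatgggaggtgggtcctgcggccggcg
Elovl6, chr3:129532136-129532385, plus strand: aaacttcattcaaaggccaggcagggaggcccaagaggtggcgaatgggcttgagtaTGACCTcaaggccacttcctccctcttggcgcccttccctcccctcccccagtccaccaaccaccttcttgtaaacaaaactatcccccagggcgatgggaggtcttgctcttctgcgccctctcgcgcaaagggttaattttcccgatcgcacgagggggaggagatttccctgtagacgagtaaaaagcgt
Per3 held the D-box in 2 places, starting 205 and 158 bases before the start, Fkbp5 held 1 E-box starting 169 bases before it, and Elovl6 held the core element on the opposite strand, starting 193 bases before it. The Nr1d1 window held none of the 4 motifs, nor did that of Dbp, which says only that these letters are absent from the window. Of the 32851 promoters in the table, 6.02% held the E-box, 3.07% the D-box, 14% the core element and 1.05% the sterol regulatory element. A match is a description of the letters and not of binding.

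Part of the fatty acid synthesis genes differed with time. Of 18 tested, 9 differed with time (Acly, Acaca, Fasn, Me1, Elovl5, Elovl6, Scd1, Fads1 and Thrsp), 7 rose from ZT4 to ZT16, 7 rose and 1, Mlxipl, fell from ZT4 to ZT22. Over all genes tested 1.66% differed with time and 0.511% rose from ZT4 to ZT16. From ZT4 to ZT22, 2.34% of all genes rose and 0.805% fell. The list median was 1.23 for ZT16 minus ZT4 and 0.85 for ZT22 minus ZT4, beside -0.02 and -0.01 for all genes. Every one of these 9 genes had a hepatocyte mean above its macrophage mean at ZT22, in tables that were normalized separately. Of all genes tested, 75.5% had a higher mean in the RevDKO hepatocyte table, a share not given for ZT22 alone. The part of hepatocyte RNA in the differences of these genes was not tested.

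Elovl6 (chr3:129235304-129341411), which elongates palmitate, stood at 17.7, 13.2 and 6.83 RPKTM at ZT4, at 34.8, 6.51 and 19.2 at ZT10, at 186, 108 and 199 at ZT16 and at 283, 342 and 149 at ZT22. The 6 light phase libraries were all below the 6 dark phase libraries. Elovl6 rose by 3.65 ± 0.54 SE from ZT4 to ZT16 (limma adjusted p = 0.00471) and by 4.26 ± 0.54 SE from ZT4 to ZT22 (limma adjusted p = 0.000383), and it was called whichever library was left out (ZT22 minus ZT4 of 3.91 to 4.61). Its Control means were 19.5, 80.9, 77.7 and 65.4 RPKTM. The term for a different time course in RevDKO and Control had its smallest p at Elovl6, but the adjusted p was 0.912 (limma), so no difference between genotypes was called. In the RevDKO hepatocyte table Elovl6 means were 169, 180, 824 and 946 RPKTM from ZT4 to ZT22.

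Scd1 (chr19:44468940-44482199), the stearoyl-CoA desaturase, stood at 398, 478 and 220 RPKTM at ZT4, at 913, 965 and 610 at ZT10, at 2360, 1660 and 4070 at ZT16 and at 2640, 6040 and 2230 at ZT22. It was separated at each step up to ZT16, and it rose by 3.24 ± 0.40 SE from ZT4 to ZT22 (limma adjusted p = 0.00037). Me1, malic enzyme, which supplies NADPH, stood at 10.2, 11.4 and 15.2 RPKTM at ZT4, at 30.5, 8.8 and 21.2 at ZT10, at 83.5, 53.4 and 94.4 at ZT16 and at 105, 193 and 93.7 at ZT22. Me1 rose by 3.25 ± 0.47 SE from ZT4 to ZT22 (limma adjusted p = 0.00127). Elovl5, an elongase of polyunsaturated fatty acids, rose by 2.29 over the same interval (limma adjusted p = 0.00153).

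Fasn, fatty acid synthase, and Thrsp, a regulator of lipogenesis, were highest at ZT16 and not at ZT22. Fasn stood at 1110, 1370 and 1550 RPKTM at ZT4, at 1360, 1860 and 1310 at ZT10, at 4710, 2830 and 2990 at ZT16 and at 2520, 2400 and 1660 at ZT22. All ZT16 libraries were above all others, and Fasn rose by 1.36 ± 0.26 SE from ZT4 to ZT16 (limma adjusted p = 0.0285). Thrsp stood at 219, 138 and 140 RPKTM at ZT4, at 229, 118 and 291 at ZT10, at 697, 608 and 528 at ZT16 and at 344, 175 and 244 at ZT22, and rose by 1.90 ± 0.35 SE from ZT4 to ZT16 (limma adjusted p = 0.0216). The F test call of Fasn was lost in 7 and that of Thrsp in 6 of the 12 fits that left out 1 library, and neither passed without the 4 libraries of low correlation (limma adjusted p = 0.257 and 0.177), when ZT16 is 1 library. Acly, Acaca and Fads1 had ranges of 1.08, 1.54 and 1.68, and all 3 rose from ZT4 to ZT22. In that same fit their F test calls were lost too (limma adjusted p = 0.159, 0.106 and 0.0599). Mlxipl, the carbohydrate response factor ChREBP, went the other way, from 732, 476 and 1370 RPKTM at ZT4 to 242, 61.7 and 275 at ZT22, a fall of 2.28 (limma adjusted p = 0.0186 for the pair and 0.0742 for the F test). Srebf1, the gene for SREBP1 and among the genes the study singled out, did not pass (range 0.62, limma adjusted p = 0.572), with libraries between 402 and 976 RPKTM.

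**Figure D4:**
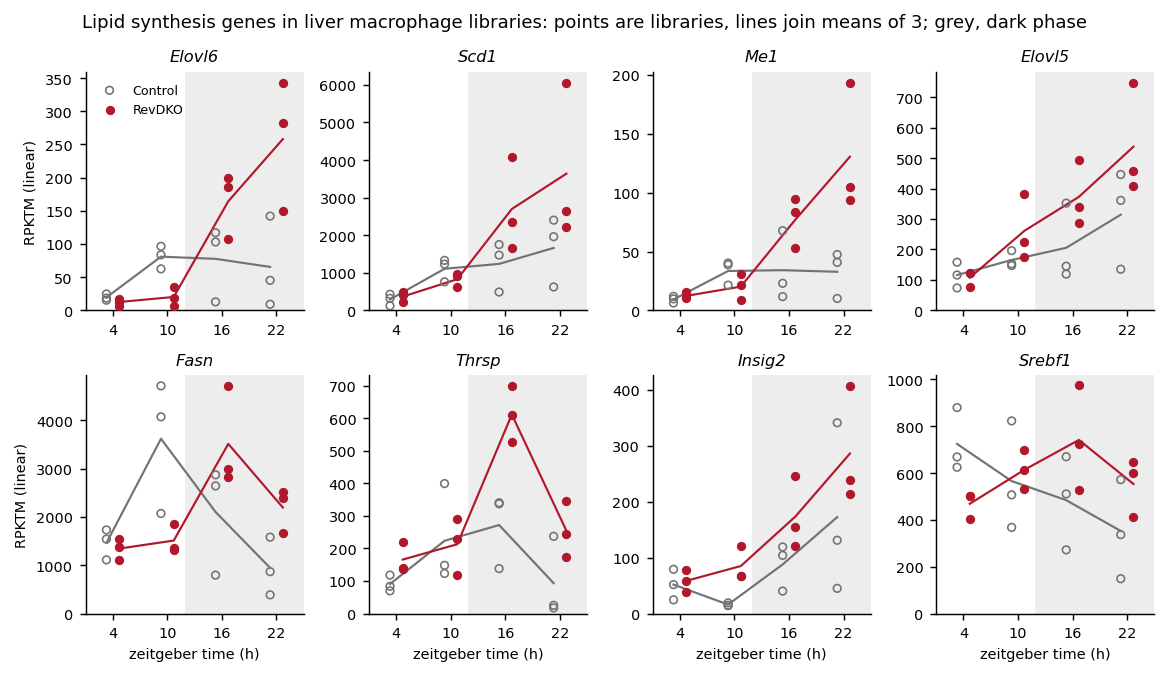
RPKTM on a linear scale (y axis) of 8 lipid genes against zeitgeber time in hours (x axis) in RevDKO (filled) and Control (open) macrophage libraries, with lines joining means of 3 and the dark phase in grey. The RevDKO libraries of Elovl6, Scd1 and Me1 are higher at ZT16 and ZT22 than at ZT4 and ZT10, Fasn and Thrsp are highest at ZT16, and Srebf1 did not pass the test.

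Cholesterol synthesis and uptake genes were shifted the same way with fewer calls. Of 26 tested, 2 differed with time, 6 rose and 0 fell from ZT4 to ZT22 by limma, and 24 had a positive difference, with a median of 0.98. Insig2, which retains the SCAP and SREBP complex in the endoplasmic reticulum, stood at 39.3, 58.9 and 77 RPKTM at ZT4, at 121, 66.7 and 67 at ZT10, at 155, 120 and 245 at ZT16 and at 239, 406 and 213 at ZT22, and rose by 2.26 ± 0.38 SE from ZT4 to ZT22 (limma adjusted p = 0.00324). Ebp, a sterol isomerase, rose by 2.25 ± 0.41 SE (limma adjusted p = 0.00603). The F test call of Insig2 was lost without ZT4 replicate 1, ZT22 replicate 1 or ZT22 replicate 2, and that of Ebp without replicate 1 or 3 of ZT4 or any ZT22 library. Among the others, Sqle rose by 1.8, Hsd17b7 by 2.47 and Sc5d by 1.57.

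Other lipid and metabolic lists held few calls. Of 21 genes of fatty acid oxidation and PPARα targets, Cyp4a14, an omega-hydroxylase, differed with time. It stood at 5.87, 3.31 and 8.72 RPKTM at ZT4, at 14.8, 21.2 and 34.8 at ZT10, at 53.9, 44.8 and 116 at ZT16 and at 46.4, 112 and 85.6 at ZT22, and rose by 3.55 ± 0.52 SE from ZT4 to ZT22 (limma adjusted p = 0.00139). Ehhadh, of peroxisomal beta-oxidation, rose by 1.63 over that interval (limma adjusted p = 0.0275), and Acadl and Cpt2 did not pass (0.81 and 1.61). None of 12 LXR target and sterol efflux genes passed by the F test or for ZT22 minus ZT4 (Lpcat3 1.0, Nr1h3 -0.76, Abcg1 -0.44, Mylip 0.67), nor did any of 17 glycolysis genes. Gpi1 and Eno1 came nearest (ranges 1.60 and 1.42, limma F test adjusted p = 0.0676 and 0.0967), and Hk3 and Tpi1 had ranges of 1.48 and 0.77.

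**Figure D5:**
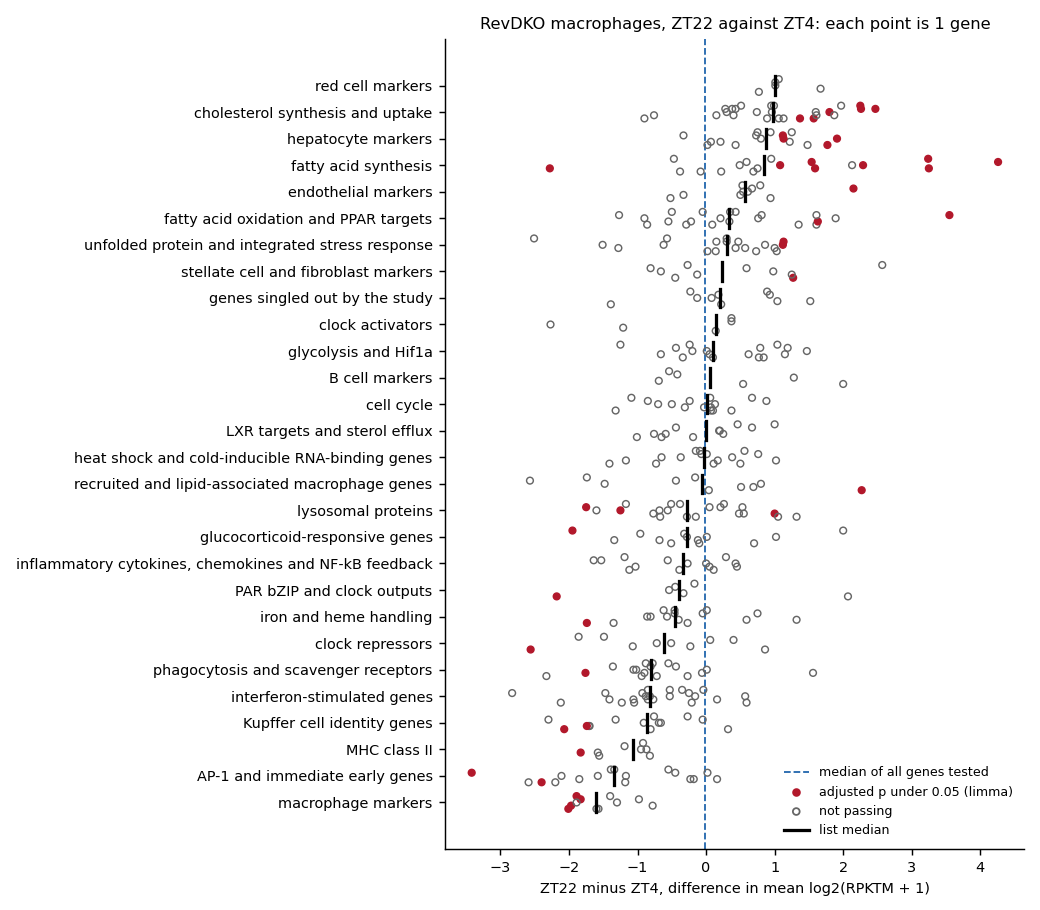
Difference of ZT22 minus ZT4 in mean log2(RPKTM + 1) (x axis) for each gene tested in the lists with at least 5 genes tested (y axis, ordered by list median), with filled points for limma adjusted p under 0.05, black bars for list medians and a dashed line for the median of all genes, -0.01. List medians run from -1.60 for macrophage markers to 1.01 for red cell markers, with hepatocyte markers at 0.87 and fatty acid synthesis at 0.85.

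By the largest range, the genes highest at ZT22 were Cyp39a1, an oxysterol hydroxylase, Mme, neprilysin, Timd2, a ferritin receptor, F9, coagulation factor IX, Elovl6 and Cyp17a1, a steroid hydroxylase. F9 (chrX:57252641-57283937) stood at 4.5, 21.9 and 43.4 RPKTM at ZT4, at 153, 108 and 74.8 at ZT10, at 168, 206 and 248 at ZT16 and at 371, 446 and 272 at ZT22. The 4 times did not overlap for F9, and it rose by 4.33 ± 0.56 SE from ZT4 to ZT22 (limma adjusted p = 0.000432). Cyp17a1 stood at 14.9, 44.6 and 42.4 RPKTM at ZT4, at 132, 86.7 and 87.9 at ZT10, at 234, 234 and 295 at ZT16 and at 372, 717 and 225 at ZT22, and rose by 3.64 ± 0.44 SE (limma adjusted p = 0.000289). Cyp39a1 rose by 4.70 ± 0.99 SE and Timd2 by 4.44 ± 0.81 SE (limma adjusted p = 0.0154 and 0.00603), each with 1 ZT4 library listed at 0. Mme had its low time at ZT10, where its libraries stood at 0, 0.113 and 3.14 RPKTM, and rose by 4.46 ± 0.74 SE to ZT22 (limma adjusted p = 0.02). The F test calls of Cyp39a1 and Timd2 were lost in 8 of the 12 fits that left out 1 library, and that of Mme without ZT22 replicate 1 or ZT22 replicate 2.

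Several families of secreted and detoxifying proteins were in this group, named here after their values were seen and so without support from their count. Of 9 Cyp2c genes tested, 7 rose from ZT4 to ZT22, as did 4 of 5 Serpina1 genes (alpha-1 antitrypsin), 6 of 14 major urinary protein genes, 16 of 17 Ugt genes (glucuronosyltransferases) and 3 of 3 complement factor H genes, beside 2.34% of all genes tested. The members of these families are near copies of each other or share exons, and the counting may have split their reads, so values of single members are uncertain. Cfhr2, a factor H related gene, stood at 55.2, 58.1 and 55.1 RPKTM at ZT4, at 225, 111 and 100 at ZT10, at 300, 287 and 307 at ZT16 and at 492, 562 and 397 at ZT22, and rose by 3.07 ± 0.30 SE (limma adjusted p = 0.000233). Serpina1c rose by 2.14 ± 0.21 SE and Cyp2c70 by 2.95 ± 0.33 SE. Mup3, the gene of smallest p between ZT4 and ZT10, rose by 2.67 ± 0.32 SE from ZT4 to ZT22 (limma adjusted p = 0.000255).

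Hepatocyte markers moved along with these genes. Of 16 tested, 2 differed with time (Apoa2 and Serpina3k), 4 rose from ZT4 to ZT22 and 15 had a positive difference (median 0.87). Apoa2, an HDL apolipoprotein, stood at 341, 508 and 509 RPKTM at ZT4, at 1160, 840 and 888 at ZT10, at 1140, 1180 and 1550 at ZT16 and at 1550, 1890 and 1620 at ZT22, and rose by 1.91 ± 0.24 SE (limma adjusted p = 0.00037). Serpina3k rose by 1.77, Ahsg by 1.13 and Ttr by 1.12. With the hepatocyte covariate, the difference between ZT22 and ZT4 was 3.20 for Elovl6, 3.03 for Scd1, 1.88 for Me1, 3.12 for F9 and 2.65 for Cfhr2, and none passed the F test (limma adjusted p between 0.0873 and 0.365). With the covariate and library weights together, Elovl6 (4.17), Scd1 (3.1) and Cfhr2 (2.74) passed the F test (limma adjusted p = 0.024, 0.0205 and 0.0219). Apoa2 also passed (1.23, limma adjusted p = 0.0458). It is among the 16 markers averaged into the covariate, so it was fitted on a score that holds its own values, and its pass is no support. Me1 and F9 did not pass (limma adjusted p = 0.15 and 0.137). In the RevDKO hepatocyte table the means of F9 were 480 RPKTM at ZT4 and 964 at ZT22, given without a test, whereas those of Cfhr2 were 1440, 1920, 1610 and 1690.

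Some macrophage and Kupffer cell genes fell from ZT4 to ZT22, and none passed between ZT4 and ZT16 by limma. None of 11 macrophage markers passed the F test (limma), 4 fell from ZT4 to ZT22 (Csf1r, C1qa, C1qb and C1qc), and all 11 had a negative difference, with a median of -1.60. Csf1r, the receptor for the growth factor CSF1, stood at 3780, 3950 and 2020 RPKTM at ZT4, at 1090, 3720 and 3120 at ZT10, at 976, 1720 and 630 at ZT16 and at 908, 585 and 939 at ZT22. ZT4 was above ZT16 and ZT22 in every library, ZT10 overlapped with ZT4 and ZT16, and Csf1r fell by 1.97 ± 0.44 SE from ZT4 to ZT22 (limma adjusted p = 0.0221). The complement genes C1qa, C1qb and C1qc fell by 1.83, 1.89 and 2.01, and Adgre1, a classical mouse macrophage gene, did not pass (-1.57, limma adjusted p = 0.0569). Of 14 Kupffer cell identity genes, Clec4f and Slc40a1 fell and 13 had a negative difference (median -0.86). Clec4f, a lectin of Kupffer cells, stood at 6490, 7570 and 3120 RPKTM at ZT4, at 1800, 4900 and 3850 at ZT10, at 1710, 2600 and 908 at ZT16 and at 1320, 856 and 1830 at ZT22, and fell by 2.07 ± 0.45 SE (limma adjusted p = 0.018). With the hepatocyte covariate its difference was 0.73 and that of Csf1r 0.61, each higher at ZT4. In Control libraries the means of Clec4f were 4000, 6420, 2940 and 3640 RPKTM.

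Lists of macrophage functions held few calls. Of 8 MHC class II genes none passed the F test (limma), Cd74, the invariant chain, fell from ZT4 to ZT22 by 1.83 (limma adjusted p = 0.0426), and all 8 were lower at ZT22 (median -1.07, with H2-Ab1 at -1.58, H2-Aa at -1.56 and H2-DMa at -1.19). Of 17 phagocytosis and scavenger receptor genes, Axl, a receptor for dying cells, fell by 1.76 (limma adjusted p = 0.0221), and Mrc1, Tyrobp and Syk did not pass (-1.02, -1.36 and -0.88). Among 15 iron and heme genes, Slc40a1, the iron exporter ferroportin, fell by 1.74 (limma adjusted p = 0.0417), while Ftl1 and Slc11a1 did not pass (-1.35 and -0.86). Of 21 lysosomal genes, 9 were higher and 12 lower at ZT22 than at ZT4 (median -0.28), Ctsb and Psap fell by 1.75 and 1.25, and Ctsl, also a cathepsin, rose by 1.0 (limma adjusted p = 0.0264), with Gaa at 0.55 and not passing. Of 23 interferon-stimulated genes none passed by either test of limma, and 20 had a lower mean at ZT22 than at ZT4 (median -0.82, with Irf7 at -1.06 and Irf1 at -1.05, and Ddx58 higher at 0.59). With the hepatocyte covariate the difference between ZT4 and ZT22 was 0.55 for Cd74, 0.81 for Axl, 0.66 for Ctsb and 0.33 for Slc40a1, each higher at ZT4.

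Among inflammatory genes Il1b differed with time, and immediate early genes were mostly lower at ZT22 than at ZT4. Il1b, the gene for interleukin-1β, stood at 63.7, 78.2 and 31.4 RPKTM at ZT4, at 16.5, 24.5 and 51.7 at ZT10, at 0.219, 0.187 and 11.6 at ZT16 and at 54.1, 15.8 and 20 at ZT22. All 3 ZT16 libraries were below the other 9, and Il1b fell by 4.39 ± 0.83 SE from ZT4 to ZT16 (limma adjusted p = 0.0233). The 2 lowest were ZT16 replicates 1 and 2, both of low correlation, and without the 4 such libraries the difference was 2.13, with ZT16 given by replicate 3 alone, and did not pass the F test (limma adjusted p = 0.473). Il1b was the only called gene of the 14 inflammatory genes tested, with Il1a and Socs3 not passing (ranges 1.18 and 1.82). Gm5431 fell by 4.06 ± 0.83 SE from ZT4 to ZT16 (limma adjusted p = 0.037), with the same 2 libraries listed at 0. Of 17 AP-1 and immediate early genes, none passed the F test (limma), Junb and Zfp36, which encodes an mRNA decay factor, fell from ZT4 to ZT22 by 3.42 and 2.40 (limma adjusted p = 0.0448 and 0.0183), and 15 were lower (median -1.34). Fos and Dusp1 did not pass (-2.20 and -1.34).

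Fkbp5, a chaperone gene induced by glucocorticoids, was the called member of 13 glucocorticoid-responsive genes. It stood at 42.5, 51.6 and 59.7 RPKTM at ZT4, at 30.7, 99.5 and 55.2 at ZT10, at 247, 205 and 159 at ZT16 and at 63.6, 114 and 78.6 at ZT22. All ZT16 libraries were above the other 9, as in Per2, and Fkbp5 rose by 1.96 ± 0.40 SE from ZT4 to ZT16 (limma adjusted p = 0.037). Its F test call was lost in 10 of the 12 fits that left out 1 library, all but those without ZT10 replicate 1 or ZT10 replicate 2. Zbtb16, a zinc finger gene of the same list, fell by 1.95 from ZT4 to ZT22 (limma adjusted p = 0.0418). Tkfc, a kinase of triose and dihydroxyacetone metabolism, stood at 89, 139 and 167 RPKTM at ZT4, at 167, 124 and 135 at ZT10, at 629, 369 and 511 at ZT16 and at 498, 275 and 422 at ZT22, and rose by 1.94 ± 0.32 SE from ZT4 to ZT16 (limma adjusted p = 0.00934). Hip1r, an endocytic adaptor, was also highest at ZT16, and fell by 1.84 ± 0.43 SE from ZT4 to ZT22 (limma adjusted p = 0.0274), with its F test call lost in 8 of the 12 fits that left out 1 library.

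Of the remaining lists, 1 of 19 unfolded protein and stress response genes differed with time, the disulfide isomerase Pdia4, which rose by 1.12 from ZT4 to ZT22 as Pdia6 did by 1.13. Dnajb11 and Ddit4 did not pass (ranges 1.2 and 2.98). None of 16 heat shock genes passed by the F test or for ZT22 minus ZT4 (Hsph1 and Hspa8 had ranges of 1.84 and 1.36, highest at ZT16), and none of 16 cell cycle genes did (Mki67, range 1.84). Lyve1, a hyaluronan receptor, differed with time among 10 endothelial markers, from 19.6, 27.8 and 13 RPKTM at ZT4 to 96.5, 85 and 85.4 at ZT22, a rise of 2.15 ± 0.39 SE (limma adjusted p = 0.00554). Its F test call was lost without replicate 1 or 3 of ZT4 or any ZT22 library, and that of Pdia4 in 11 of the 12 fits that left out 1 library. Of 10 stellate cell and fibroblast markers, Dcn rose by 1.27 (limma adjusted p = 0.0479), and Ecm1 and Lum did not pass for that pair (0.59 and 2.57). Cd9 rose by 2.27 among 10 recruited and lipid-associated macrophage genes (limma adjusted p = 0.0427). None of the 10 tested genes that the study singled out, some of them as hepatocyte ligands, passed (limma F test): besides Eno1 and Srebf1 they were Bmpr1a (range 1.07), Pdgfd (2.13), Jund (1.39), Bmp5 (0.89), Inhba (0.82), Myc (1.33), Tnfsf12 (0.67) and Pdgfrb (0.31). That list was chosen by the study on these samples. The study judged rhythm by another test, JTK_CYCLE, and did not report all of these genes as rhythmic in RevDKO macrophages. It described Jund as having a higher amplitude in control macrophages, and Pdgfrb as not statistically rhythmic. It did report Eno1 as rhythmic with a higher amplitude in RevDKO macrophages, and the rhythm and amplitude of Bmpr1a as enhanced in them. The F test results are therefore no check of its calls.

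The 29 genes highest at ZT4 were of another kind. They included the nuclear noncoding RNAs Malat1 and Neat1, small nucleolar RNAs and long transcripts, with a median transcript length of 8429 bases beside 2918.5 for all genes tested and 2230 for the 163 genes highest at ZT22. Malat1 (chr19:5795690-5802672), abundant in nuclear speckles, stood at 19100, 23800 and 73300 RPKTM at ZT4, at 15700, 23800 and 23800 at ZT10, at 9220, 15700 and 11300 at ZT16 and at 3280, 1720 and 5150 at ZT22, and fell by 3.39 ± 0.46 SE from ZT4 to ZT22 (limma adjusted p = 0.000744). Neat1 (chr19:5824710-5845478), the scaffold of paraspeckles, stood at 10500, 5630 and 11300 RPKTM at ZT4, at 4480, 9220 and 9220 at ZT10, at 6040, 5380 and 12100 at ZT16 and at 1470, 877 and 1240 at ZT22. Its 3 ZT22 libraries were below the other 9, which overlapped with each other, and Neat1 fell by 2.65 ± 0.38 SE from ZT16 to ZT22 (limma adjusted p = 0.0433) and by 2.90 ± 0.38 SE from ZT4 (limma adjusted p = 0.000446).

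Snord17, a small nucleolar RNA, stood at 6040, 6260 and 7570 RPKTM at ZT4, at 4340, 4340 and 4900 at ZT10, at 3120, 1570 and 1470 at ZT16 and at 1020, 754 and 1330 at ZT22. The 4 times did not overlap, and it fell by 2.71 ± 0.29 SE from ZT4 to ZT22 (limma adjusted p = 0.000244). Snord15b and BC024386 fell by 2.8 and 2.3. Of 78 small nucleolar and Cajal body RNAs tested, 5 differed with time, and 7 fell and 0 rose from ZT4 to ZT22 by limma (median -0.45), a family named after its values were seen. Over all genes tested 1.66% differed with time, and 0.805% fell and 2.34% rose from ZT4 to ZT22. The splicing gene Srrm2 fell by 1.98 ± 0.24 SE and the histone methyltransferase gene Kmt2d by 1.78 ± 0.21 SE over this interval, both named after their values were seen. In the RevDKO hepatocyte table Snord17 means were 372, 341, 442 and 354 RPKTM, and Kmt2d means 441, 316, 445 and 439. Malat1 means there were 70400, 54400, 42400 and 46100, and Neat1 means 18000, 5290, 8200 and 13300. Srrm2 means were 1830, 1040, 1040 and 1190, BC024386 means 1870, 1360, 701 and 1100, and Snord15b means 624, 467, 661 and 563. These hepatocyte values are given without a test.

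Among the genes highest at ZT10, besides Dbp and Nr1d1, were short RNAs and genes with libraries at 0. Rprl3, an RNase P RNA-like gene, stood at 5.29, 158 and 47.1 RPKTM at ZT4, at 96.1, 64.4 and 158 at ZT10, at 53.1, 214 and 8.28 at ZT16 and at 1.2, 0 and 0 at ZT22, and was called between ZT10 and ZT22 (-6.27 ± 1.08 SE, limma adjusted p = 0.0217), a gene whose F test call was lost without any 1 of the ZT22 libraries. Mir1843b lies wholly within Scarna3a on the same strand (chr1:161270489-161270554 within chr1:161270438-161270555), so their 66 shared bases are 1 signal, which fell by 2.89 for Mir1843b and 2.85 for Scarna3a between the same times. Prune2 was highest at ZT10 and stood at 0, 0 and 9.78 RPKTM at ZT16, again with the 2 libraries of low correlation at 0, and without the 4 such libraries, with 1 library left at ZT16, it did not pass (limma F test adjusted p = 0.319). Dmbt1, a scavenger receptor cysteine-rich protein gene, fell by 3.54 ± 0.91 SE from ZT4 to ZT22 (limma adjusted p = 0.0465) and did not pass the F test.

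The time course was then compared with that of Control macrophages in the same table. No gene of 13673 passed the time by genotype term (limma adjusted p under 0.05; 0%, with 521 at an unadjusted p under 0.05). The 5 smallest p were those of Elovl6, Dmbt1, 4833418N02Rik, Rgs16 and Slc2a5, all with a limma adjusted p of 0.912. Rgs16, a regulator of G protein signalling, stood at 12.1, 57.7 and 262 RPKTM at ZT4 and at 152, 97.3 and 194 at ZT16 in RevDKO, with Control means of 122 and 15.3 at those times. Slc2a5, the fructose transporter gene, stood at 17.4, 9.91 and 6.53 RPKTM at ZT22 in RevDKO and was listed at 0 in all Control libraries of that time. For the clock genes called in RevDKO, the limma adjusted p of this term was 0.912 for Nr1d1, Dbp and Per3 and 0.913 for Per2, and it was 0.912 for Cry1 and Nfil3. Alternative settings gave 0 calls or, leaving out 1 library, up to 17, without RevDKO ZT16 replicate 3. A p that misses the threshold does not show that the time courses were alike.

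JTK_CYCLE was run on the genes of the F test with the series entered 2 times in a row and with periods of 18 and 24 h tried, of which 24 h had to be the best. It called 2854 of 12924 genes rhythmic (22.1%). The highest mean RPKTM was at ZT4 for 807 of them, ZT10 for 580, ZT16 for 544 and ZT22 for 923, which are not phases fitted by the test. With the series entered once it called 203, and none of these passed Benjamini-Hochberg adjustment over genes. The repetition adds no data. The distribution over the day was more even than that of the F test, of whose 215 calls 75.8% were highest at ZT22.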

How the data were processed

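RNA from isolated cells was depleted of ribosomal RNA and made into stranded libraries. Per the submitters' processing notes and the methods, the authors aligned reads with STAR to mm9 and counted RefSeq transcripts with HOMER, versions and strand setting not given in the sources used here. The deposited values are RPKM on another fixed library total (RPKTM) and quantile normalized per table by the authors, so depth is not known and limits on counting error cannot be given. The deposited tables hold 42322 transcripts. Here 91 without a symbol (0.215%) were dropped, the transcript of highest mean was kept for each of 25094 symbols, and genes with at least 3 of 12 libraries over 5 RPKTM were tested on log2(RPKTM + 1) with limma 3.58.1 in R 4.3.3 (mean-variance trend, Benjamini-Hochberg), 12 libraries without covariate. In the macrophage table the highest value alone held 27.5% of each column's sum. The genotype term used 24 libraries. JTK_CYCLE was written anew (Python 3.11.15; periods of 18 and 24 h, ratio of highest to lowest mean over 1.5). Scripts were tested on simulated data. The labels do not number animals. The members and lists were chosen with earlier results of these data known. Genes were named by a rule: for each time of highest mean the 6 called genes of largest range, for each pair of times the 2 largest rises and falls among called genes without overlap of libraries, or the smallest p, the 5 smallest p of the genotype term, every clock and study gene tested, the targeted genes, and up to 4 genes of smallest p from each other list. Fasn, Acly, Acaca, Fads1, Mlxipl, Sqle, Hsd17b7, C1qa, Cfhr2, Serpina1c, Cyp2c70, Srrm2 and Kmt2d were named after their values were seen. Some genes that the rule names are not reported here. Macrophage libraries of mice that also lacked Scap entered only the fit over all 36 libraries.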

Additional observations from a re-analysis of the deposited data

How the results depend on the processing

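All 215 genes kept their direction in every setting run, but the counts depended on the settings. Direction is that of the highest minus the lowest time, picked for each gene from these same libraries. Keeping it was thus close to fixed in advance and is no support. Over the 4 times, 163 genes differed with a pseudocount of 0.1, 217 with at least 6 of 12 libraries over 5 RPKTM, 61 without a filter on low values, 415 in a fit over all 36 libraries, 842 with array weights, 131 without the 4 libraries of low correlation, 64 with the hepatocyte covariate and weights together, and 0 with the covariate alone (1125 at an unadjusted p under 0.05 by limma) or without the mean-variance trend (1400). For ZT16 minus ZT4 (75), the counts in the settings that moved by over 1.5 times were 31 without filter, 121 over 36 libraries, 21 with the covariate, 18 with covariate and weights, 17 without the 4 libraries and 0 without trend. For ZT22 minus ZT4 (407) they were 239 without filter, 1145 with weights, 133 without trend, 209 with covariate and weights and 0 with the covariate. For ZT22 minus ZT10 (50) they were 22 with the pseudocount of 0.1, 31 over 36 libraries, 617 with weights, 4 without the 4 libraries, 26 with covariate and weights, and 0 without filter, with the covariate or without trend. ZT16 minus ZT10 went from 0 to 25 over 36 libraries. ZT22 minus ZT16 went from 1 to 4 over 36 libraries, 2 with weights, 5 with covariate and weights, and 0 with the pseudocount of 0.1, the covariate, no filter, no trend or without the 4 libraries. JTK_CYCLE went from 2854 to 203 with the series entered once and 0 after adjustment. Alternatives with the covariate and weights together and without the 4 libraries were chosen after seeing the data, and the second leaves 1 library at ZT16. The cause of these changes was not tested.

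Leaving out 1 library gave 66 to 293 genes over the 4 times, 0 for ZT10 minus ZT4, 24 to 155 for ZT16 minus ZT4 (lowest without ZT4 replicate 1, highest without ZT4 replicate 3), 170 to 513 for ZT22 minus ZT4 (without ZT22 replicate 1 and ZT10 replicate 2), 0 to 47 for ZT16 minus ZT10, 0 to 155 for ZT22 minus ZT10 (highest without ZT10 replicate 1), 0 to 85 for ZT22 minus ZT16 (highest without ZT16 replicate 3), 0 to 17 for the genotype term and 2298 to 2955 for JTK_CYCLE. Whether replicate numbers pair the libraries is not known, since the labels do not number animals. The 18 same-number pairs had a median correlation of deviations of 0.023, from -0.094 to 0.305. The 36 pairs of unlike number had a median of -0.019, from -0.243 to 0.187. These correlations cannot decide the pairing. With the replicate block, 153 genes differed over the 4 times, 54 for ZT16 minus ZT4, 373 for ZT22 minus ZT4 and 23 for ZT22 minus ZT10. Some genes that were not called turned direction: Arntl to -0.05 with the covariate, -0.15 without the 4 libraries and -0.13 with covariate and weights, Clock to -0.14 with covariate and weights, Hlf to -0.21 and Myc to -0.59 without the 4 libraries, Myc to -0.26 with covariate and weights, Scap to -0.33 and -0.37, and Tnfsf12 to -0.11, -0.28 and, without the 4 libraries, -0.09. Leaving out 1 library, the difference ran from -0.35 to 0.58 for Arntl and from -0.62 to 2.16 for Hlf. Depth is not known, so no limit from counting error can be given.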
